A study of Homo sapiens with 6 samples.

Results

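CGA, CD70, CFTR and KCNIP4 are 4 protein-coding genes whose group means in the deposited gene table step in a single direction from non-transduced TCam-2 cells, through cells carrying GFP, to cells carrying RBMXL3. CGA and CD70 step up and CFTR and KCNIP4 step down. They are 4 of 62700 genes listed and of 14292 genes that passed a filter on low values (2 or more libraries at a rescaled value of 1 or more), and all 4 passed it. The mean levels of the 3 groups chose them, so their values at gene level, and the summed transcripts and isoforms of the same libraries, are given as a description and carry no test. The rule sets no minimum step. TCam-2 is an established human line from a testicular germ cell cancer of the seminoma type. The 3 groups were non-transduced cells (WT), cells transduced with GFP_FLAG (GFP) and cells transduced with RBMXL3_FLAG (RBMXL3), with 2 libraries of poly(A) RNA in each. WT cells differ from the other groups in the transduction as well as in the transgene, and GFP cells differ from RBMXL3 cells in the transgene. The comparison of RBMXL3 with GFP addresses what the overexpression of RBMXL3 changes, and the comparison of GFP with WT what transduction and the tagged control protein change.

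CGA encodes the alpha subunit that the glycoprotein hormones share. It pairs with a hormone-specific beta subunit to give chorionic gonadotropin in trophoblast, the outer cell layer of the placenta, and luteinizing, follicle-stimulating and thyroid-stimulating hormone in the pituitary. CD70 is a membrane ligand of the tumour necrosis factor (TNF) family whose receptor is CD27 on lymphocytes, and many tumours carry it. CFTR is the chloride and bicarbonate channel of epithelia that cAMP-dependent protein kinase opens, and loss of it causes cystic fibrosis. KCNIP4 is a calcium-binding protein that joins the pore-forming Kv4 subunits (KCND1, KCND2 and KCND3) and shapes their rapidly inactivating, A-type potassium current.

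The 4 stretches of genome sequence below stand at the starts of genes whose levels step and are from RefSeq on GRCh38.p14. Of the 4 genes, 3 matched an entry of the RefSeq promoter table. Capitals mark motif matches. The CGA stretch (chr6:87095221-87095250, minus strand) lies 144 to 115 bases before the RefSeq start at 87095106. The CFTR stretch (chr7:117479965-117479994, plus strand) lies 60 to 31 bases before the RefSeq start at 117480025. GENCODE 29 places them in the first exons of CGA-204 and CFTR-201. The KCNIP4 stretches lie outside annotated exons, upstream of its distal start (chr4:21948800-21949014, minus strand) and of its proximal start (chr4:20984071-20984320, minus strand).
CGA: atTGACGTCAtggtaaaaatTGACGTCAtg
CFTR: ttggaagcaaaTGACATCAcagcaggtcag
KCNIP4 distal: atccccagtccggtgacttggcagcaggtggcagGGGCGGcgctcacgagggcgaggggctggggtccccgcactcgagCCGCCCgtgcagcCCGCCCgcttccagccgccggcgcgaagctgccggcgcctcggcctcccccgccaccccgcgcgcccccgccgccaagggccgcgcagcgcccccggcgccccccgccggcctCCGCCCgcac
KCNIP4 proximal: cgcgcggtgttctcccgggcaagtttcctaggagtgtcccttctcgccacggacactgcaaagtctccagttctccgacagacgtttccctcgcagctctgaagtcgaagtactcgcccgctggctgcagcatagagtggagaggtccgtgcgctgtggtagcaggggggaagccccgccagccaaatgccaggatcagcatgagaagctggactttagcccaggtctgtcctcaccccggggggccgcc

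The capitals in CGA are 2 copies of TGACGTCA, the cAMP response element that CREB-family factors are known to bind and for which the CGA promoter is a textbook case. They begin 142 and 124 bases before the start. CFTR carries TGACATCA, 49 bases before its start, a variant that matches TGACNTCA. The distal KCNIP4 stretch holds 4 GC boxes, GGGCGG on either strand, and the proximal one holds none of the motifs searched. A further RefSeq start of KCNIP4, at 21697740, whose sequence is not printed, has an AP-1 match, TGATTCA, 95 bases before it and a CCAAT box at 158 bases. The search covered both strands of the 250 bases before each RefSeq start for the cAMP response element TGACGTCA, its looser form TGACNTCA, the AP-1 site TGANTCA, the TATA box TATAAA, the GATA site AGATAA, the CCAAT box and the GC box, and every TGACGTCA also matches TGACNTCA. Over 35116 windows of the same length, 1.65% held TGACGTCA and 0.0541% held 2 or more copies of it. TGACNTCA stood in 6.87% of the windows and GGGCGG in 42.6%. CGA also holds TATAAA at 29 bases, which 10.7% of windows have, and AGATAA at 156 bases, which 9.17% have. A CCAAT box stands 88 bases before the start of CGA and 61 before that of CFTR, and 32.0% of windows hold one, while 6.57% hold an AP-1 match. A match is a description of the letters and not of a bound site.

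The libraries held between 17685680 and 29318007 reads, fewest in the RBMXL3 group. The labels do not say that the libraries came from separate cultures, so a p-value here measures the spread between these samples, which may be technical. The 3 groups share 1 estimate of that spread, so leaving out a library also changes the p-values of a comparison without its group. The spread was uneven, with a median absolute log2 difference between replicates of 0.124 for WT, 0.183 for GFP and 0.077 for RBMXL3. RBMXL3 itself had 0 reads in the 4 control libraries, which allows up to 3 reads in each, and 84 and 68 reads in the libraries labelled RBMXL3. Of the 15 seminoma markers examined all 15 passed the filter, with POU5F1 at a mean of 1459 TPM (a transcript abundance scaled for length and depth) for WT, 1475 for GFP and 2126 for RBMXL3. The summed level of the 15 was 3910 to 4250 TPM for WT, 3790 to 3910 for GFP and 4680 to 4760 for RBMXL3. POU5F1 is the largest part of that sum, so the higher sum with RBMXL3 does not describe the 15 as a set. Calls among the 15 went both ways. Limma called 524 of 14292 genes between GFP and WT (3.67%), 2986 between RBMXL3 and GFP (20.9%) and 4271 between RBMXL3 and WT (29.9%), at a Benjamini-Hochberg adjusted p under 0.05. A count of 0 calls between GFP and WT was left without WT replicate 1, with 1877 genes at an unadjusted p under 0.05, and 20 calls were left without WT replicate 2. Without GFP replicate 1 the calls between GFP and WT numbered 1146, and without GFP replicate 2 they numbered 2780. Without RBMXL3 replicate 1 or 2 the 3 counts were 153 or 144, 840 or 658 and 1637 or 1428 in the same order, and without WT replicate 1 or 2 the count between RBMXL3 and WT was 1553 or 2692. The labels name neither a batch nor a date, so preparation and group cannot be told apart.

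Values at gene level are the deposited normalised read counts, in which each library's reads were divided by its own size factor. Steps are differences of group means of log2(value + 1), where the value is the normalised read count divided by a common factor of 23.9, and the pseudocount of 1 understates the change of genes at low levels. An ordered pattern is common in these libraries. Of the 14292 genes, 22.3% had group means rising in the order WT, GFP, RBMXL3 and 23.6% had them falling. Either order of means occurred in 45.9%. Libraries in order without overlap occurred in 7.16% of genes upward (1024 genes) and 7.09% downward (1013 genes). A further minimum of 0.5 on both steps left 44 genes upward (0.308%) and 23 downward (0.161%), 67 in all (0.469%), and by group means alone the same minimum was met by 0.315% upward and 0.168% downward. The 4 members are among these 67 by their choice. Ranked by the smaller of the steps, CGA came 5 and CD70 16 of the 1024 upward genes, and KCNIP4 came 2 and CFTR 13 of the 1013 downward genes. With a pseudocount of 0.1 in place of 1, 171 genes met the same minimum.

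CGA (ENSG00000135346.9; chromosome 6, 87085498 to 87095406, minus strand, GENCODE 29 on GRCh38) had normalised read counts of 42.3 and 17.6 in the WT libraries, 134.9 and 115.5 with GFP, and 169.9 and 291.9 with RBMXL3. The group ranges did not overlap, but the libraries within WT and within RBMXL3 lay far apart. The means were 29.98 ± 17.5, 125.2 ± 13.7 and 230.9 ± 86.3 (SD, n = 2 each). The step from WT to GFP was 4.18-fold, and the step from GFP to RBMXL3 was 1.84-fold. The second step, 105.7 normalised reads, was 1.22 times the larger of the SDs of its groups. It was smaller than the distance between the RBMXL3 libraries, at 169.9 and 291.9. The reads behind the WT values were 50 and 21, against 132 and 273 in RBMXL3.

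CD70 (ENSG00000125726.11; chromosome 19, 6583183 to 6604103, minus strand) had normalised read counts of 102.4 in each WT library, 311.4 and 276.5 with GFP, and 455.8 and 472.6 with RBMXL3. Its groups were tight and did not overlap. The means were 102.4 ± 0.0677, 294.0 ± 24.7 and 464.2 ± 11.9 (SD, n = 2 each). They correspond to steps of 2.87-fold and 1.58-fold, and 4.53-fold from WT to RBMXL3. The second step was 6.89 times the larger SD of its groups.

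CFTR (ENSG00000001626.18; chromosome 7, 117465784 to 117715971, plus strand) had normalised read counts of 457.2 and 469.8 for WT, 278.1 and 289.2 for GFP and 194.4 and 170.0 for RBMXL3. Each group lay below the one before it without overlap. The means were 463.5 ± 8.91, 283.7 ± 7.85 and 182.2 ± 17.2 (SD, n = 2 each), so that WT was 1.63-fold above GFP and GFP 1.56-fold above RBMXL3. The steps were 20.2 and 5.90 times the larger SD of the groups they join.

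KCNIP4 (ENSG00000185774.17; chromosome 4, 20728616 to 21948799, minus strand) had normalised read counts of 657.0 and 640.1 for WT, 263.4 and 367.6 for GFP and 151.9 and 152.9 for RBMXL3. The GFP libraries were the most spread, and the groups did not overlap. The means were 648.6 ± 12, 315.5 ± 73.7 and 152.4 ± 0.702 (SD, n = 2 each). WT was 2.06-fold above GFP, GFP was 2.07-fold above RBMXL3, and WT was 4.26-fold above RBMXL3. The second step was 2.21 times the SD of the GFP libraries.

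**Figure D1:**
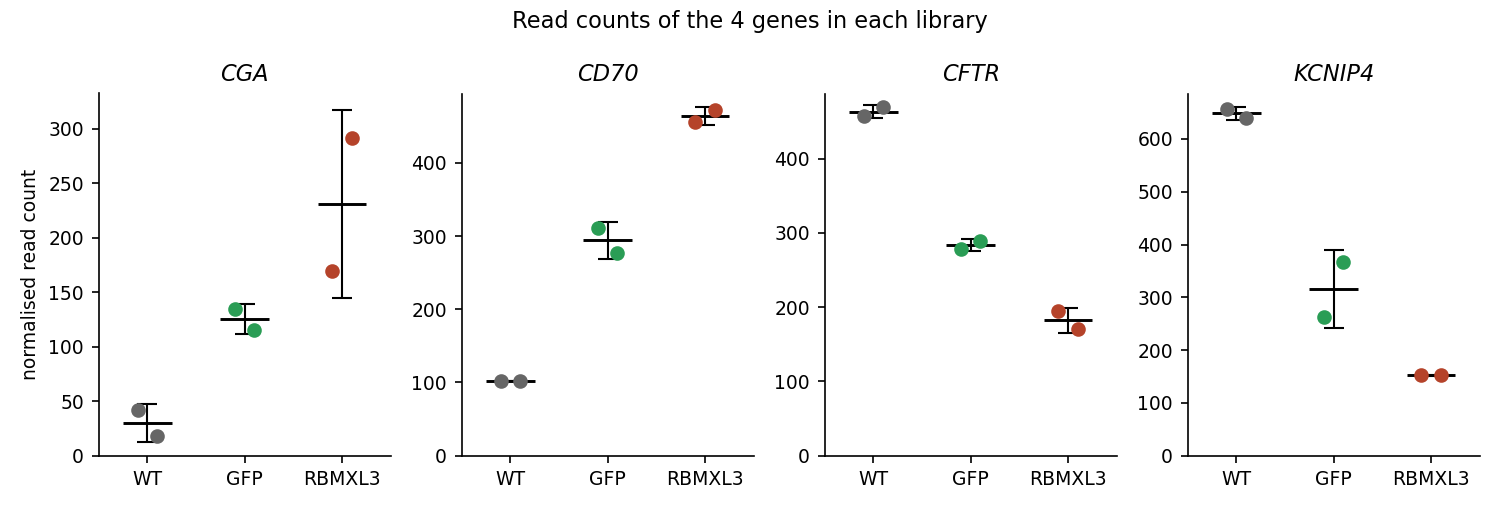
Normalised read count (vertical axes, linear, each gene on its own scale from 0) of CGA, CD70, CFTR and KCNIP4 in the WT, GFP and RBMXL3 libraries. Points are libraries, horizontal lines group means and bars 1 SD (n = 2 each). The RBMXL3 libraries of CGA (169.9 and 291.9) and the GFP libraries of KCNIP4 (263.4 and 367.6) are the most spread, and no groups overlap.

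On the log2(value + 1) scale CGA stepped by 1.51 and then 0.73, and CD70 by 1.33 and then 0.62. For CFTR the differences were -0.66 and -0.58, and for KCNIP4 they were -1.004 and -0.93. The step from WT to GFP, which involves no RBMXL3, made up 67.2% of the total difference of CGA and 68.2% of that of CD70. It made up 53.4% for CFTR and 52.0% for KCNIP4. The pair that steps up therefore has the larger part of its total difference between the controls, and the pair that steps down has about equal parts. A single library changes the size of some steps. Without RBMXL3 replicate 2 the second step of CGA was 0.38, and without RBMXL3 replicate 1 it was 1.09.

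The deposited transcript table, quantified with salmon, gives another measure of the same libraries, in TPM. Summed over its transcripts, CGA had 4.39 and 1.79 TPM for WT, 12.6 and 10.5 for GFP and 20.2 and 35.03 for RBMXL3. CD70 had 6.37 and 7.31 TPM for WT, 19.9 and 15.6 for GFP and 34.3 and 36.2 for RBMXL3. Both kept the order of the read counts without overlap between groups. CFTR had 4.32 and 4.24 TPM for WT, 3.33 and 2.73 for GFP and 0.782 and 2.13 for RBMXL3. KCNIP4 had 28.7 and 25.8 TPM for WT, 12.1 and 14.0 for GFP and 5.80 and 6.06 for RBMXL3. Both again kept the order, but RBMXL3 replicate 1 of CFTR lay far below replicate 2, which the read counts of 194.4 and 170.0 do not show.

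In summed TPM the weight of the steps moved toward the second. GFP was 3.74-fold above WT for CGA and RBMXL3 was 2.39-fold above GFP, where the read counts gave 4.18 and 1.84. For CD70 the TPM folds were 2.60 and 1.98, where the read counts gave 2.87 and 1.58. CFTR was 1.41-fold lower and then 2.08-fold lower, and KCNIP4 was 2.08-fold and then 2.20-fold lower. Over 14262 genes the median log2(TPM + 1) difference was -0.09 between GFP and WT and 0.13 between RBMXL3 and GFP, so TPM as a whole shifts between the groups. Relative to those medians the steps on the log2(TPM + 1) scale were 1.78 and 1.02 for CGA, and 1.34 and 0.83 for CD70. Relative to the same medians they were -0.30 and -0.89 for CFTR, and -0.92 and -1.14 for KCNIP4. The first step of CFTR was thus the smallest of these in TPM. In TPM the step between the controls made up 59.6% of the total for CGA, 56.7% for CD70, 33.9% for CFTR and 49.7% for KCNIP4.

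**Figure D2:**
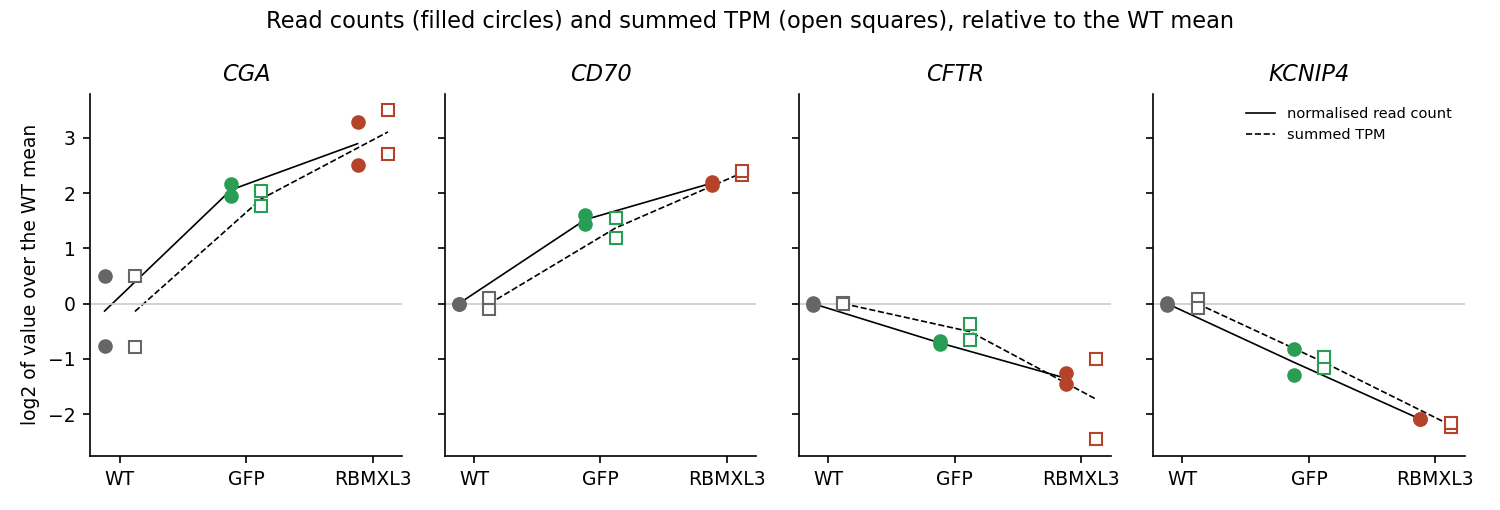
Log2 of each library's value over the mean of the WT libraries, for normalised read counts (filled circles, solid line through the mean of the log2 values) and summed TPM (open squares, dashed line), by group. Both measures step the same way in all 4 genes, and the CFTR square of RBMXL3 replicate 1 (0.782 TPM) lies far below that of replicate 2 (2.13 TPM).

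TPM corrects for transcript length, so the levels of the 4 genes can be set beside each other on that scale. In WT, KCNIP4 was highest at 27.2 ± 2.07 TPM, followed by CD70 at 6.84 ± 0.668, CFTR at 4.28 ± 0.0585 and CGA at 3.09 ± 1.84 (SD, n = 2 each). CFTR and CGA overlapped in WT, since CGA reached 4.39 TPM in replicate 1. In RBMXL3 the order was CD70 at 35.2 ± 1.35, CGA at 27.6 ± 10.5, KCNIP4 at 5.93 ± 0.189 and CFTR at 1.454 ± 0.950. CD70 and CGA were not separated there beyond the spread of CGA. Among 14014 genes with a level in TPM, CGA stood above 24.0% in WT and above 66.9% in RBMXL3, and KCNIP4 went the other way, from 66.4% to 33.0%. CD70 moved from 36.4% to 72.1%, and CFTR from 28.8% to 13.1%.

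The transcript level shows whether a step belongs to a single isoform. Transcripts are named as in GENCODE 29. For CGA-204, CD70-201, KCNIP4-205 and CFTR-201, CFTR-204, CFTR-214 and CFTR-217 the deposited table holds a newer version than that release, so the lengths and starts given here may differ from the ones quantified. Transcripts without a gene in GENCODE 29 are not in the sums.

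CGA was carried by a single transcript. CGA-204, with a coding sequence of 348 bases, accounted for 100% of CGA's TPM in both GFP libraries, 100% and 92.9% in WT, and 99.1% and 97.9% in RBMXL3. CGA-206 had at most 0.348 TPM, and CGA-201 and CGA-202 were above 0 only in RBMXL3 replicate 2. The step of CGA is therefore the step of CGA-204 in this table, with group means of 3.03, 11.6 and 27.1 TPM.

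CD70 had 2 transcripts above 0. CD70-201 encodes 193 residues and CD70-202 encodes 208, and they share 448 coding bases. CD70-201 had 5.77 and 5.59 TPM for WT, 18.5 and 13.1 for GFP and 32.2 and 34.1 for RBMXL3. These groups stepped up without overlap, as the gene did. CD70-202 had 0.601 and 1.72 TPM for WT, 1.47 and 2.56 for GFP and 2.06 and 2.09 for RBMXL3. GFP overlapped both other groups. The share of CD70-202 was 16.5% ± 10.0 for WT, 11.9% ± 6.35 for GFP and 5.89% ± 0.176 for RBMXL3 (SD, n = 2 each), and the WT and GFP shares overlapped.

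CFTR had 5 transcripts above 0, all at low TPM. CFTR-201, the full-length form with 1480 residues, had 3.10 and 4.13 TPM for WT, 1.86 and 1.17 for GFP and 0 and 1.29 for RBMXL3. WT lay above the other groups, and GFP and RBMXL3 overlapped. CFTR-201 was listed at 0 TPM in RBMXL3 replicate 1, although the gene had 151 reads there and 159 in replicate 2. CFTR-205, a short model of 682 bases whose start lies 131654 bases downstream of that of CFTR-201, was listed at 0 TPM in both WT libraries. It had 0.948 and 0.723 TPM with GFP, and 0.627 and 0.436 with RBMXL3. CFTR-217, whose coding bases cover 95.9% of those of CFTR-201, had 0.498 and 0 TPM for WT, 0.522 and 0.834 for GFP and 0 and 0.398 for RBMXL3. The full-length share was 84.5% ± 18.3 for WT, 49.4% ± 9.19 for GFP and 30.4% ± 43.0 for RBMXL3 (SD, n = 2 each), and the last of these covers almost any value.

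KCNIP4 had 2 main transcripts, which begin 964758 bases apart. KCNIP4-205 begins next to the distal stretch printed above and encodes 250 residues, and KCNIP4-203 begins next to the proximal one and encodes 233. They share 587 coding bases, 78.3% of the longer and 84.0% of the shorter, and differ in their N-terminal parts. KCNIP4-205 had 18.0 and 18.4 TPM for WT, 7.71 and 9.34 for GFP and 3.53 and 3.62 for RBMXL3. KCNIP4-203 had 10.7 and 7.27 TPM for WT, 4.43 and 4.64 for GFP and 2.27 and 2.44 for RBMXL3. Both stepped down in the same order without overlap between groups. KCNIP4-205 was 2.14-fold lower in GFP than in WT and a further 2.39-fold lower in RBMXL3, and KCNIP4-203 was 1.97-fold and 1.93-fold lower. The share of KCNIP4-205 was 67.1% ± 6.01 for WT, 65.1% ± 2.35 for GFP and 60.3% ± 0.809 for RBMXL3 (SD, n = 2 each), and WT and GFP overlapped.

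Reads of overlapping genes could enter a count where strand was not used, and the counting mode is not given in the sources used here. CFTR shares 51 exon bases (0.546% of its exons) with CTTNBP2 on the opposite strand, which had 3 to 14 reads per library. KCNIP4 shares 325 exon bases (7.64%) with the antisense gene AC096576.2, which had 0 reads in all 6 libraries. PACRGL overlaps KCNIP4 on the opposite strand and shares 0 exon bases with it.

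The hormone partners of CGA were at or near 0 reads. Beta subunits are what turn the alpha subunit into a hormone, and none of the 14 hormone and receptor genes listed passed the filter, so none was tested. CGB1, CGB2, FSHB, TSHB and GPHB5 had 0 reads in all 6 libraries. CGB3, CGB5 and CGB8, which encode the chorionic gonadotropin beta chain, had at most 4, 5 and 5 reads in any library. Their highest values were in RBMXL3 replicate 2, and CGB5 and CGB8 had 0 reads in the other 5 libraries. The CGB genes are near-identical copies, so reads may be split or lost among them and their counts are uncertain. CGB7 had normalised read counts of 7.14 ± 7.70 for WT, 5.76 ± 6.84 for GFP and 11.5 ± 3.46 for RBMXL3, and LHB had 7.17 ± 3.03, 12.4 ± 1.90 and 13.6 ± 2.61 (SD, n = 2 each). The receptors LHCGR, FSHR and TSHR had at most 1, 2 and 1 reads in any library.

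Of 19 factors with known sites in the CGA promoter, 17 were tested. Limma called 3 higher and 1 lower in GFP than in WT, 5 between RBMXL3 and GFP, all higher in RBMXL3, and 7 between RBMXL3 and WT, again all higher. Over all genes 1.76% were called higher and 1.91% lower in the first of these comparisons, 10.5% and 10.4% in the second, and 14.6% and 15.3% in the third. The listed factors had median log2 differences of 0.13, 0.23 and 0.26, against -0.01, 0.00 and -0.01 over all genes tested. FOS, an AP-1 subunit, was at 116.7 ± 6.19 normalised reads with GFP and 864.7 ± 101 with RBMXL3 (SD, n = 2 each), a log2 difference of 2.66 (SE 0.14; limma adjusted p 4.46e-07). JUNB, its partner, differed by 1.17 between the same groups (SE 0.19; limma adjusted p 0.00184). Neither FOS nor JUNB was called between GFP and WT, at 0.23 and 0.05. Whether either factor plays a part in the steps of CGA was not tested.

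The GATA factors of that list were called at the other step, though a difference between the steps was not tested. GATA2 was at 120.9 ± 1.38 normalised reads for WT, 236.0 ± 19.1 for GFP and 282.8 ± 61.3 for RBMXL3 (SD, n = 2 each). It was called between GFP and WT (log2 difference 0.84, SE 0.16; limma adjusted p 0.0178) and not between RBMXL3 and GFP (0.23, adjusted p 0.326). GATA3 gave 0.59 (adjusted p 0.0347) and 0.26 (adjusted p 0.182) in the same order. The GFP against WT calls of both end without WT replicate 1 or WT replicate 2, with adjusted p up to 0.175, and that of GATA3 also without either RBMXL3 replicate. CEBPB was called at both steps, by 0.61 and 0.66 (limma adjusted p 0.0383 and 0.00673), and its first call ends without any 1 of the WT or RBMXL3 libraries (adjusted p up to 0.283). Its second call ends without RBMXL3 replicate 2 (adjusted p 0.0545). TFAP2A, named after its values were seen as the 1 factor called lower in GFP, was 0.56 below WT there and 0.67 higher in RBMXL3 than in GFP (limma adjusted p 0.0275 and 0.00266). The first of these ends without any 1 of the WT or RBMXL3 libraries (adjusted p up to 0.25). ATF3 was called in RBMXL3 against WT, at 0.50 (limma adjusted p 0.00718), a call that ends without WT replicate 2 or either RBMXL3 replicate (up to 0.0773). CREB1, whose product binds the cAMP response element, was called in no comparison, at -0.17, 0.33 and 0.16.

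The cAMP response element was also read over all genes with a RefSeq promoter window. Of 371 tested genes with at least 1 TGACGTCA in theirs, 11.1% were called higher and 16.2% lower in RBMXL3 than in WT. Among all 10782 tested genes with a window the shares were 14.4% and 15.8%. Apart from CGA, 12 tested genes had 2 or more copies, and 2 of these were called higher and 2 lower in RBMXL3 than in WT. In GFP against WT, 0.539% of the 371 were called higher and 2.96% lower, against 1.59% and 1.87% of the 10782. In RBMXL3 against GFP the shares were 8.36% and 11.3%, against 10.2% and 10.9%. The median log2 differences of the 371 were -0.005, -0.04 and -0.05 in the order GFP against WT, RBMXL3 against GFP and RBMXL3 against WT.

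Trophoblast is the cell type in which CGA is best known, so 28 further trophoblast markers were examined and 14 passed the filter. Limma called 2 between GFP and WT, both higher in GFP, 3 higher and 1 lower in RBMXL3 than in GFP, and 7 higher and 1 lower in RBMXL3 than in WT. These are 14.3%, 28.6% and 57.1% of the 14, against 3.67%, 20.9% and 29.9% of all genes. The median log2 differences of the 14 were 0.34, 0.18 and 0.38. Those called higher against WT include ERVFRD-1, ERVW-1 and GCM1, fusion proteins and a regulator of the syncytiotrophoblast, the fused outer layer that secretes the hormone. Others of the list, among them PSG5 and PSG1, lay lower in RBMXL3 than in WT. ERVFRD-1 (syncytin-2) had normalised read counts of 17.8 and 25.2 for WT, 90.6 and 49.8 for GFP and 153.2 and 175.4 for RBMXL3. It stepped without overlap, by 1.02 (SE 0.21; limma adjusted p 0.0247) and 1.03 (adjusted p 0.00487). CYP19A1, the aromatase that makes oestrogen, had 15.2 and 25.2 for WT, 80.4 and 61.5 for GFP and 69.5 and 113.4 for RBMXL3. Its GFP and RBMXL3 libraries overlapped, and it was called between GFP and WT, by 1.11 (SE 0.21; limma adjusted p 0.0196), and not between RBMXL3 and GFP, by 0.26 (adjusted p 0.401).

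GCM1, the transcription factor that drives syncytial fusion, was at 7.58 ± 1.14 for WT, 25.7 ± 1.09 for GFP and 32.0 ± 10.7 for RBMXL3 (SD, n = 2 each). It was called against WT in RBMXL3 (0.82, SE 0.19; limma adjusted p 0.00717), while the GFP difference of 0.66 did not pass (adjusted p 0.0719). TP63, SDC1, PGF and ERVW-1 were also called higher in RBMXL3 than in WT, by 0.96, 0.87, 0.58 and 0.33. PSG5, a pregnancy-specific glycoprotein, was called lower, by -0.69 (limma adjusted p 0.00929). PSG1, named after its values were seen, was under the filter. Its normalised read counts fell without overlap, from 12.7 and 11.8 for WT through 7.39 and 10.6 for GFP to 3.86 and 3.21 for RBMXL3. HSD3B1, named after its values were seen, was the marker called lower in RBMXL3 than in GFP (-0.58, limma adjusted p 0.0296). Other placental hormones and secreted proteins were near 0, with CSH1 at 0 to 6.36 normalised reads, INSL4 at 0 to 1.85 and KISS1 at 0 to 1.07. The summed TPM of the 28 markers was 306 to 325 for WT, 289 to 316 for GFP and 310 to 327 for RBMXL3. TEAD4 at 172.5 ± 6.21 TPM and KRT7 at 98.6 ± 5.92 (SD, n = 2 each) make up most of that sum in WT, whereas ERVFRD-1, GCM1 and CYP19A1 had group means of at most 3.21 TPM, so the sum does not follow them. Fewer cells of a type and less RNA per cell cannot be told apart in these bulk libraries.

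Single libraries bear on these counts. Both trophoblast calls between GFP and WT end without WT replicate 1 or WT replicate 2, with adjusted p up to 0.238 for ERVFRD-1 and 0.228 for CYP19A1. The 4 calls between RBMXL3 and GFP become 2 without WT replicate 1, WT replicate 2 or GFP replicate 1, and 1 without either RBMXL3 replicate. The 8 calls against WT become 5 without WT replicate 1 and 4 without RBMXL3 replicate 2. Those of GCM1 and PGF end without either of these libraries (adjusted p up to 0.118 and 0.122), that of ERVW-1 without any 1 of the WT or RBMXL3 libraries (up to 0.258), and that of PSG5 without WT replicate 2 or either RBMXL3 replicate (up to 0.0773). The call of HSD3B1 against GFP ends without GFP replicate 1 or either RBMXL3 replicate (up to 0.193). The 4 calls of CGA promoter factors between GFP and WT become 0 without either WT replicate and 1 without either RBMXL3 replicate, and the 5 between RBMXL3 and GFP become 8 without GFP replicate 2.

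**Figure D3:**
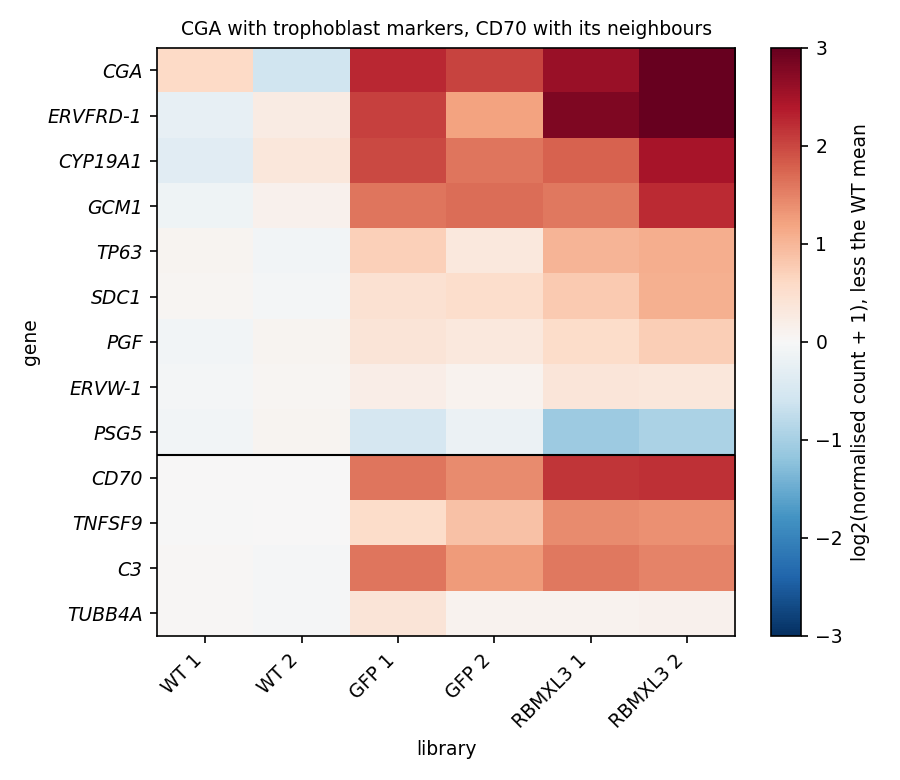
Log2(normalised read count + 1) of each library less the mean of the WT libraries, without the division by the common factor that the steps in the text use. Shown are CGA and the 8 trophoblast markers called in RBMXL3 against WT (above the line), and CD70 and its 3 tested neighbours (below). Red is above and blue below the WT mean, and the markers were picked by their calls. CYP19A1, GCM1 and C3 are about as high in GFP as in RBMXL3, ERVFRD-1 and TNFSF9 are higher in RBMXL3, and PSG5 is the marker that is lower.

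The receptor of CD70 was near 0. CD27 had 0 reads in 4 libraries and at most 2 in any. Of 23 listed genes, made up of CD27, its adaptors and other TNF-family ligands, 7 passed the filter. As shares of these 7, calls were 14.3%, 14.3% and 28.6% in the 3 comparisons, against 3.67%, 20.9% and 29.9% of all genes. Limma called 1 between GFP and WT, 1 between RBMXL3 and GFP and 2 between RBMXL3 and WT, all higher in the group named first, with medians of -0.13, 0.06 and -0.07. SIVA1, which binds the tail of CD27, was the second of the 2, at 0.46 in RBMXL3 against WT (SE 0.11; limma adjusted p 0.00685), a call that ends without WT replicate 1 or RBMXL3 replicate 1 (adjusted p up to 0.122). The adaptors TRAF2, TRAF3 and TRAF5 were not called in any comparison. The immune ligands LTB, CD40LG, FASLG and TNFSF18 had 0 reads in all 6 libraries.

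The other called gene of that list is also the neighbour of CD70 on chromosome 19. TNFSF9 encodes 4-1BBL, a TNF-family ligand, and lies 47.3 kb from CD70 on the plus strand (6530999 to 6535928). It had normalised read counts of 1019 and 1049 for WT, 1516 and 1899 for GFP and 2745 and 2668 for RBMXL3. The groups did not overlap. TNFSF9 stepped by 0.70, 0.67 and 1.37 in the 3 comparisons (SE 0.11 each; limma adjusted p 0.0132, 0.00219 and 1.29e-05), and the first of these calls ends without WT replicate 1 or WT replicate 2 (adjusted p up to 0.159), or in summed TPM. Its mean TPM was 42.3, 63.7 and 120.8 in the 3 groups, above that of CD70 in each.

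On the other side of CD70 stand TNFSF14, 57.1 kb away, and C3, 73.6 kb away. TNFSF14, another TNF-family ligand of this cluster, had 1 read over all 6 libraries. C3, the central complement protein, was at 34.1 ± 0.817 normalised reads for WT, 94.5 ± 15.3 for GFP and 100.8 ± 4.93 for RBMXL3 (SD, n = 2 each). It was called between GFP and WT (1.02, SE 0.16; limma adjusted p 0.0125) and not between RBMXL3 and GFP (0.08, adjusted p 0.764). The call between GFP and WT ends without WT replicate 1 or 2 (adjusted p up to 0.13), and in TPM, where its means were 0.747, 1.11 and 0.622, C3 was not called. TUBB4A, a tubulin gene beyond TNFSF9 at 80.3 kb, was called in no comparison, at 0.25, -0.14 and 0.11. Of the 3 tested neighbours of CD70, TNFSF9 was called at both steps.

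None of the tested neighbours of the other members was called at both steps. Over all genes 3.67% were called between GFP and WT, so the lack of such calls in so few genes says little about them. Next to CGA, ZNF292 (57.4 kb) and GJB7 (188 kb) were called in no comparison, and HTR1E (68.8 kb) was under the filter. SYNCRIP, 1440 kb away, was called in RBMXL3 against GFP (1.06, SE 0.19; limma adjusted p 0.00321) and stood at -0.49 in GFP against WT (adjusted p 0.165). In TPM its direction turned, with means of 104.4 ± 26.3 for WT, 67.2 ± 9.44 for GFP and 58.8 ± 2.57 for RBMXL3 (SD, n = 2 each), and the call ends in summed TPM. Around CFTR, ASZ1 (37.7 kb) had 1 read in all, and WNT2 (142 kb) and LSM8 (468 kb) were not called. ANKRD7 (499 kb) was under the filter, and its 7 and 10 reads for WT, 5 and 3 for GFP and 1 and 2 for RBMXL3 lay in the order of CFTR without overlap. Around KCNIP4, ADGRA3 (396 kb) had normalised read counts of 2176 and 2175 for WT, 2113 and 1857 for GFP and 1603 and 1561 for RBMXL3, in the order of KCNIP4 without overlap. It was called lower in RBMXL3 than in GFP, by -0.32, and than in WT, by -0.45 (limma adjusted p 0.0376 and 0.00528), and the first of these ends without any 1 library other than GFP replicate 2 (adjusted p up to 0.294). The second ends without WT replicate 1 or either RBMXL3 replicate (up to 0.0874). SLIT2 (108 kb) was called the opposite way to KCNIP4, higher in RBMXL3 than in WT by 0.58 (limma adjusted p 0.0252), a call that ends without WT replicate 1, WT replicate 2 or RBMXL3 replicate 2 (up to 0.241). LCORL and PPARGC1A were not called.

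Genes that work with CFTR were called in both directions, as all genes were. Of 31 genes listed, covering its scaffolds, folding factors, kinase and the other channels and transporters of epithelia, 22 passed the filter. Limma called 0 between GFP and WT, where 4 had an unadjusted p under 0.05, edgeR called 0 and DESeq2 called 1. It called 1 higher and 2 lower in RBMXL3 than in GFP, and 4 higher and 5 lower in RBMXL3 than in WT, with medians of 0.06, -0.02 and 0.07. These are 13.6% and 40.9% of the 22, against 20.9% and 29.9% of all genes. SLC12A2 (NKCC1), which loads epithelial cells with the chloride that CFTR releases, had 984.7 and 974.9 normalised reads for WT, 737.4 and 741.6 for GFP and 588.4 and 603.1 for RBMXL3. It lay in the order of CFTR without overlap and differed by -0.70 in RBMXL3 against WT (SE 0.10; limma adjusted p 0.000554). Its separate steps of -0.40 and -0.30 did not pass (adjusted p 0.0519 and 0.0538).

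Scaffolds and chaperones of CFTR divided. EZR, the ezrin that ties CFTR to actin, and AHSA1, an HSP90 co-chaperone in its folding, were called lower in RBMXL3 than in GFP, by -0.36 and -0.54 (limma adjusted p 0.0355 and 0.0068), calls that end without either RBMXL3 replicate (adjusted p up to 0.268 and 0.0782). GOPC, which sends CFTR to lysosomes, was called higher, by 0.73 (limma adjusted p 0.00294). Against WT, NHERF2, a PDZ scaffold, the epithelial sodium channel subunit SCNN1A and the potassium channel KCNQ1 were called higher, by 0.60, 0.40 and 0.60, and the calcium-binding chaperone CALU was called lower, by -0.40. Each of these 4 calls ends without RBMXL3 replicate 2, with adjusted p up to 0.22, and those of SCNN1A, KCNQ1 and CALU also without WT replicate 1 or RBMXL3 replicate 1. NHERF1, the main scaffold of CFTR, was not called, at 0.11, -0.07 and 0.04. The 9 calls against WT become 2 without WT replicate 1, 2 without RBMXL3 replicate 1 and 1 without RBMXL3 replicate 2. The 3 calls against GFP become 5 without GFP replicate 1, 6 without GFP replicate 2, and 1 without either RBMXL3 replicate. The epithelial regulator FOXI1 and the channel subunits SCNN1B and SCNN1G were under the filter.

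The potassium channel that KCNIP4 modulates was present at low levels and did not step with it. Of 17 genes of the A-type channel complex, 9 passed the filter. KCND1, a Kv4 pore subunit, was at 318.8 ± 51.0 normalised reads for WT, 327.7 ± 30.5 for GFP and 389.2 ± 3.04 for RBMXL3 (SD, n = 2 each), and was called in no comparison. KCND3, another pore subunit, was at 23.2 ± 6.41, 27.2 ± 1.93 and 20.1 ± 4.80, also without a call, and KCND2 had at most 1 read in any library. Among the relatives of KCNIP4, KCNIP3 was at 123.5 ± 8.55, 116.2 ± 3.54 and 142.4 ± 10.3 and was not called (0.25 in RBMXL3 against GFP, SE 0.14; limma adjusted p 0.244). KCNIP1 and KCNIP2 were under the filter, at 5.15 to 12.01 and 3.18 to 12.8 normalised reads.

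Calls by limma in that complex were made between RBMXL3 and each control group. Limma called 0 of the 9 between GFP and WT, where 3 had an unadjusted p under 0.05 and edgeR and DESeq2 called 0 each. It called 1 between RBMXL3 and GFP (11.1%, against 20.9% of all genes) and 3 between RBMXL3 and WT (33.3%, against 29.9%), with medians of -0.07, 0.20 and 0.17. DPP6, an auxiliary subunit of Kv4 channels, was higher in RBMXL3 than in GFP by 0.59 (SE 0.16; limma adjusted p 0.0218), a call that ends without GFP replicate 2 or either RBMXL3 replicate (adjusted p up to 0.139). Its relative DPP10 was lower in RBMXL3 than in WT by -0.46 (SE 0.15; limma adjusted p 0.0382). KCNAB2, a beta subunit, was higher against WT by 0.74 (SE 0.14; limma adjusted p 0.00213), and KCNE3 was higher by 0.48 (SE 0.16; limma adjusted p 0.0414). Without any 1 of the WT or RBMXL3 libraries 1 of the 3 calls against WT was left, with adjusted p up to 0.187 for DPP10 and 0.257 for KCNE3, and without either GFP replicate there were 5. Between GFP and WT, 1 was called without GFP replicate 2.

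Over the 8 lists together, 92 genes were tested, and 14.1%, 23.9% and 44.6% of them were called in the 3 comparisons, in the order GFP against WT, RBMXL3 against GFP and RBMXL3 against WT. Over all genes the shares were 3.67%, 20.9% and 29.9%, so the second lies close to that of all genes. The lists were chosen with earlier results of these data known, so neither these shares nor those of the single lists are an independent comparison. The median log2 differences of the 92 were 0.10, 0.09 and 0.20. The counts were 13, 22 and 41 genes. The first becomes 0 without either WT replicate, 7 and 6 without RBMXL3 replicate 1 and 2, and 26 without GFP replicate 2. The second becomes 9 without either RBMXL3 replicate. The third becomes 20 without WT replicate 1 or RBMXL3 replicate 1 and 18 without RBMXL3 replicate 2. In summed TPM 0 genes were called between GFP and WT by limma, where 2214 had an unadjusted p under 0.05, so every call named for that comparison ends there. Of the calls named for RBMXL3 against GFP, those of GOPC, EZR, AHSA1, DPP6, HSD3B1, SYNCRIP, ADGRA3 and KIT end in summed TPM. Against WT, those of CYP19A1, SDC1, NHERF2, SCNN1A, KCNQ1, CALU, KCNAB2, KCNE3 and ADGRA3 end there. With DESeq2 on the recovered reads the calls of KCNQ1, DPP10, KCNE3 and ERVW-1 against WT and that of HSD3B1 against GFP end.

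The genes whose pattern was most like each member were taken as those with the smallest root mean square difference of log2(value + 1), centred on each gene's mean, over the 6 libraries. Their likeness was selected, so r is a description. CGA was most like CD70 (0.296, r = 0.96), followed by GDF15 (0.361, r = 0.96), a stress-induced growth factor that is also abundant in placenta, and ERVFRD-1 (0.386, r = 0.92). CD70 was most like FOXH1 (0.203, r = 0.99), a partner of SMAD proteins in NODAL signalling, PCK2 (0.214, r = 0.96), the mitochondrial PEP carboxykinase, and ENSG00000286339 (0.215, r = 0.97). CFTR was most like RSPO3 (0.092, r = 0.98), a secreted enhancer of WNT signalling, ITGA1 (0.097, r = 0.98), an integrin subunit, and PRICKLE1 (0.099, r = 0.98), a planar polarity protein. KCNIP4 was most like the adhesion protein ALCAM (0.216, r = 0.97), the small GTPase RND3 (0.228, r = 0.96) and the serpin SERPINB4 (0.253, r = 0.95). The r values share the same 6 libraries in 3 groups, so any genes that step alike have a high r.

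Apart from ENSG00000286339, which has no position in GENCODE 29, only ERVFRD-1 lies on the chromosome of the member it resembles, chromosome 6 with CGA. FOXH1 was at 394.9 ± 5.54 normalised reads for WT, 778.5 ± 1.87 for GFP and 1198 ± 93.3 for RBMXL3 (SD, n = 2 each). PRICKLE1 was at 2149 ± 99.7, 1480 ± 68.6 and 974.5 ± 7.10, and ALCAM at 564.1 ± 99.0, 286.6 ± 14.2 and 162.3 ± 7.20.

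Markers of somatic and stromal cells, which a culture could also hold, are given beside these results. Of 18 listed, 10 passed the filter. Of these 10, limma called 4 between GFP and WT, 3 between RBMXL3 and GFP and 6 between RBMXL3 and WT. All of them were higher in the group named first, and the medians were 0.38, 0.47 and 0.56. Over all genes 3.67%, 20.9% and 29.9% were called in the same order, with 1.76%, 10.5% and 14.6% called higher. The shares of the 10 lay above these in each comparison. The collagen gene COL3A1 was at 119.2 ± 6.97 normalised reads for WT, 210.5 ± 4.97 for GFP and 496.6 ± 9.65 for RBMXL3, and LUM, a matrix proteoglycan, at 72.5 ± 10.0, 155.1 ± 33.8 and 423.1 ± 2.51 (SD, n = 2 each). Both stepped up at both steps (limma adjusted p 0.0163 for each between GFP and WT). Their calls between GFP and WT end without WT replicate 1 or 2 (adjusted p up to 0.17), and the 4 calls of that list then become 0, or 2 without RBMXL3 replicate 2. The 6 calls between RBMXL3 and WT become 3 without WT replicate 1 or RBMXL3 replicate 1. The summed TPM of the 18 was 187 to 192 for WT, 210 to 233 for GFP and 217 to 240 for RBMXL3. The leukocyte gene CD3E had 0 reads in every library, and PTPRC, CD68 and DCN had at most 2. Whether stromal markers play a part in the steps of the 4 genes was not tested. The 15 seminoma markers were called both ways, with 1 higher and 1 lower in GFP than in WT, 2 higher and 3 lower in RBMXL3 than in GFP, and 3 higher and 4 lower in RBMXL3 than in WT. Together 13.3%, 33.3% and 46.7% of the 15 were called, against 3.67%, 20.9% and 29.9% of all genes. KIT, a seminoma receptor, was among those called lower, at 2490 ± 124 for WT, 1864 ± 87.8 for GFP and 1420 ± 12.4 for RBMXL3, called at both steps (limma adjusted p 0.0407 and 0.015). The first call of KIT ends without any 1 of the WT or RBMXL3 libraries (adjusted p up to 0.27), and the second without either RBMXL3 replicate (up to 0.165).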

How the data were processed

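Poly(A) RNA of TCam-2 cells was sequenced with a stranded kit in 3 groups of 2 libraries, per the labels. Trim Galore 0.6.10, STAR 2.7.11a, DESeq2, Salmon 1.10.2 and GRCh38 are named in the submitters' processing notes, without roles. The read counter, annotation and use of strand are not given in the sources used here. The deposited gene table is a normalised signal, in which the authors divided read counts by 1 size factor per library. Of 145320 nonzero values 100% came out as whole reads (tolerance 0.0001 reads), 17685680 to 29318007 per library. The table's name refers to CPM, but the columns have unequal and larger totals, so the planned minimum and pseudocount were applied to values divided by a common 23.9. The deposited transcript table holds TPM, which keeps no depth, for 251955 transcripts. Of these 80.0% had a gene in GENCODE 29, with 94.7% to 95.1% of the TPM, and were summed per gene.

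Genes were kept where 2 or more libraries had a value of 1 or more, which left 14292, and log2(value + 1) was fitted with limma 3.58.1 (R 4.3.3), with 1 coefficient per group and an intensity trend. Tests were two-sided, and calls had a Benjamini-Hochberg adjusted p under 0.05 over all genes. Scripts were tested on simulated data. The alternatives were edgeR 4.0.16 and DESeq2 1.42.0 on the recovered reads, quantile normalization, another pseudocount, other filters, summed TPM, a replicate block and leaving out each library. The members and the gene lists were chosen with earlier results of these data known. Besides the members, the genes named were the 3 most like each member, up to 8 called genes per list by size in RBMXL3 against WT, fixed partners and receptors, the 2 nearest protein-coding genes on each side, and transcripts at 5% or more of their gene. Errors are SDs of 2 libraries, and the limit on a count of 0 covers counting error only. The number of table columns belonging to no sample was 0.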

Additional observations from a re-analysis of the deposited data

How the results depend on the processing

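The 4 members' differences in the 3 comparisons were recomputed under 14 alternatives, which gave 168 values. None reversed, 134 stayed within the spread between replicates and 34 moved beyond it. Many of the 134 could not move. Another filter, the replicate block or leaving out a library of the third group leaves a member's difference unchanged. The members were also chosen on these differences, so the tally is a description. With edgeR on the recovered reads, CGA was at 2.07 in GFP against WT and 2.97 in RBMXL3 against WT, CD70 at 1.53 and 2.19, and CFTR at -0.70 and -1.34, while KCNIP4 was at -2.08 in RBMXL3 against WT. DESeq2 gave 2.07 and 2.97, 1.53 and 2.20, -0.70 and -1.33, and -2.07 in the same order. A pseudocount of 0.1 gave 2.09 and 2.91, 1.497 and 2.15, -0.70 and -1.34, and -2.07, since a pseudocount of 1 shrinks low values. Under quantile normalization RBMXL3 against WT was 1.89 for CD70 and -1.98 for KCNIP4. In summed TPM, RBMXL3 against GFP was 1.14 for CGA, 0.96 for CD70 and -0.77 for CFTR. RBMXL3 against WT was 2.83 for CGA, 2.21 for CD70 and -2.02 for KCNIP4 in TPM, and GFP against WT was -0.39 for CFTR.

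Leaving out 1 library gave 1.25 to 1.41 for CD70 in GFP against WT and 1.93 to 1.98 in RBMXL3 against WT, and -1.15 to -0.70 for KCNIP4 in RBMXL3 against GFP. CGA ranged from 1.17 to 1.84 in GFP against WT, from 0.38 to 1.09 in RBMXL3 against GFP and from 1.89 to 2.59 in RBMXL3 against WT.

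Counts of called genes moved more. In GFP against WT, quantile normalization called 327 genes, and no filter and summed TPM called 0 each, with 3951 and 2214 at an unadjusted p under 0.05. EdgeR called 474 and DESeq2 695. In RBMXL3 against GFP, edgeR called 2848 genes, no filter 950 and summed TPM 988. In RBMXL3 against WT the same settings called 4157, 2327 and 1638. Leaving out 1 library gave 0 to 2780, 658 to 4313 and 1428 to 6163 calls in the 3 comparisons. The listed genes called were 0, 7 and 24 with no filter and 0, 11 and 23 in summed TPM, and leaving out 1 library gave 0 to 26, 9 to 29 and 18 to 54. The genes with both steps of at least 0.5 in order numbered 171 with a pseudocount of 0.1, against 67. The cause of these changes was not tested.

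The main fit did not pair the samples by replicate number, and the labels name no batch that would pair them. Deviations of same-numbered libraries from their group means correlated at -0.156 for WT and GFP, 0.034 for WT and RBMXL3, and -0.094 for GFP and RBMXL3. Low correlations cannot show whether same-numbered libraries were prepared together. A fit with the replicate block called 191, 2386 and 3697 genes in the 3 comparisons. It lowered the seminoma markers called from 2 to 0 in GFP against WT and from 5 to 3 in RBMXL3 against GFP.

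With 2 libraries per group an SD rests on a single difference. CGA, with 21 reads in WT replicate 2, and the CFTR isoforms, at or below 4.13 TPM, are the least precise of the values given.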

Other observations

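The 4 genes have company at the top of the ordered pattern. The genes named here were chosen after their values were seen, as those with the largest smaller step among genes whose libraries lie in order, and carry no test. Upward, ERVFRD-1 stepped by 1.02 and 1.03 on the log2(value + 1) scale and PCK2 by 0.90 and 1.04. LUM stepped by 0.88 and 1.33, and EPAS1, which encodes the oxygen-sensitive factor HIF-2alpha, by 0.78 and 0.87. CRABP2, a retinoic acid carrier, had 259.1 and 263.4 normalised reads for WT, 448.2 and 445.0 for GFP and 889.7 and 833.0 for RBMXL3. VTCN1, the B7-H4 immune checkpoint ligand, had 285.3 and 269.3, then 528.6 and 466.2, then 829.1 and 839.4.

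Downward, the neighbouring serpin genes SERPINB3 and SERPINB4 rank 1 and 5 by the same measure. SERPINB3 had 207.4 and 212.3 normalised reads for WT, 113.7 and 80.5 for GFP and 29.6 and 35.3 for RBMXL3. SERPINB4 had 318.3 and 214.8, then 146.9 and 157.9, then 65.7 and 42.8. They are near-identical copies, so reads may be split between them and their separate counts are uncertain. ALCAM and RND3, named with KCNIP4, rank 4 and 3 there, and COL14A1, a fibril-associated collagen, ranks 7 with steps of -0.73 and -0.64, while the collagen gene COL3A1 went up.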
